A study of Mus musculus with 4 samples.

Results

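Molecular chaperones bind proteins that are not folded and keep them from aggregating. Transcripts of 10 chaperone genes were followed in cells sorted as mTECs, the medullary epithelial cells of the thymus that display tissue-specific antigens to developing T cells. The genes were chosen by name, as 6 chaperones of the cytosol (Hspa1a, Hspa1b, Hspa8, Hsp90aa1, Hsp90ab1 and Dnajb1) and 4 of the endoplasmic reticulum, or ER (Hspa5, Hsp90b1, Pdia4 and Calr). They are 10 of the 23366 gene rows of the read count table, and 10 of 10 were among the 10865 genes kept by a filter on low counts. Cells lacking CD45 and propidium iodide staining, with MHCII and a low level of Ly51 on the surface, had been sorted from wild-type C57BL/6 mice of 6 to 8 weeks. Each library came from polyA RNA of 10 pooled mice, with 2 pools from females (female pools 1 and 2) and 2 pools from males (male pools 1 and 2). The study was designed to compare male with female expression, and no treatment is given for any pool. Pooling leaves the spread between single mice unmeasured. The labels number the pools within each sex and do not say what the number stands for.

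In the cytosol, Hsp70 proteins take up exposed stretches of other proteins with the help of J-domain partners, and Hsp90 proteins act later, on nearly folded clients such as kinases and steroid receptors. When unfolded protein accumulates, the transcription factor HSF1 binds heat shock elements, facing GAA and TTC units, and switches on the inducible Hsp70 genes. In the ER, a separate set of chaperones folds secreted and membrane proteins, MHC molecules among them, and is governed by the unfolded protein response, which acts in part through the ER stress element.

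The promoters of the set were searched for both elements. RefSeq promoters (GRCm38.p6, 250 bases before the start) were matched for 7 of the 10 genes, all but Hspa8, Hsp90aa1 and Hsp90ab1, and both strands were read. The heat shock letters GAANNTTC stood in the Hspa1a and Hspa1b promoters, at 104 to 97 bases before the start in each. These letters occur in 6.69% of the 32851 mouse promoters, the outward-facing form TTCNNGAA in 7.17%, and either form in 12.8%. The stretches below, 5′ to 3′ on the gene's strand with the element in capitals, are shown because Hspa1a and Hspa1b share it and because the promoters as a whole are equal at 247 of 250 bases.
Hspa1a, chr17:34972233-34972280, minus strand: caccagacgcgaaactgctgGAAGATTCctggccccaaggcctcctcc
Hspa1b, chr17:34959315-34959362, minus strand: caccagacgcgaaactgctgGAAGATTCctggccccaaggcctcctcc

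The ER stress element was searched as CCAAT, any 9 bases, then CCACG, and only 37 of the promoters (0.113%) held it. Hspa5, Hsp90b1 and Calr were among them, with 2 copies in Hsp90b1. Each copy contains a CCAAT box, which by itself occurs in 33.8% of promoters. The stretches below carry the element in capitals, and copies that begin with CGTGG read on the other strand.
Hspa5, chr2:34772005-34772063, plus strand: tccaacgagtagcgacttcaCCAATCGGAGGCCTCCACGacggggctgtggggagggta
Calr, chr8:84847055-84847113, minus strand: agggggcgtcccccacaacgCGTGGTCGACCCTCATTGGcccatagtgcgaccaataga
Hsp90b1, chr10:86705513-86705676, minus strand: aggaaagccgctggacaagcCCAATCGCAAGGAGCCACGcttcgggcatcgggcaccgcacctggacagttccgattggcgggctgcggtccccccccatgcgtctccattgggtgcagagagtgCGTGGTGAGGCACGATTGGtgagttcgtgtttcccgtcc

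Neither the heat shock letters nor the ER stress element was found in the windows of Dnajb1 and Pdia4. Pdia4 had 3 CCAAT boxes and Dnajb1 had 1. A match is a description of letters and no evidence that a factor was bound in these cells.

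Reads counted on genes numbered 1976272 to 7103627 per pool, and pool 2 was the shallower pool in each sex. TMM factors, which rescale each library for its composition, were 1.05, 1.03, 1.18 and 0.780 for female pools 1 and 2 and male pools 1 and 2. Values per gene are normalized CPM, which set each count against the size of its library after this scaling. A count of 0 would allow up to 3 counts, or 0.358 to 1.48 normalized CPM, and every chaperone of the set was far above that. The sorted cells held Aire at 19.3 to 31.7 normalized CPM, and Ccl21a, another mTEC gene, at 0 in every pool. Reads with several alignments were not assigned to genes, and whether Ccl21a could be counted was not checked, so its 0 does not show absence. The sorted cells also held transcripts of blood cells that the sort was set to remove, among them Ptprc, which encodes CD45, at 179.6 to 304.2 normalized CPM. In each pool the 8 B cell markers summed to more than the 9 epithelial markers, at 2539 to 4619 beside 376 to 650.2 normalized CPM. The values below are of the sorted mixture, in which fewer cells of a type and less RNA per cell cannot be told apart.

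The chaperones were abundant transcripts. Levels of different genes were compared per kilobase of exon, as normalized CPM divided by exon length in kilobases (RPKM), averaged over the 4 pools. Hspa8, the constitutive Hsp70 of the cytosol, had the highest level at 960.4 ± 75.7 (SD, n = 4), above 99.2% of the 10309 tested genes with a known exon length. Hsp90ab1, the constitutive Hsp90, followed at 698 ± 17.9. Hspa5, the ER Hsp70 known as BiP, stood at 404 ± 111, Hsp90aa1, the inducible Hsp90, at 322 ± 87.8 and Calr, the glycoprotein chaperone calreticulin, at 319 ± 54.7. From Hspa5 to Calr, each of these 3 neighbours lay within 1 SD of the next. Hsp90b1, the ER Hsp90 known as Grp94, had a level of 167 ± 36.1 and Hspa1a, an inducible Hsp70, of 166 ± 109. Hspa1b, its near-identical neighbour, had 131 ± 82.5 and Dnajb1, a J-domain partner of Hsp70, 121 ± 40.9, and from Hsp90b1 to Dnajb1 each gene lay within 1 SD of the next. Pdia4, a protein disulfide isomerase of the ER, was the lowest at 73.7 ± 18.4, still above 91.3% of the ranked genes.

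Part of this order depends on which reads could be counted. Reads with several alignments were not assigned to genes, and made up 27.3% to 33.2% of what the table holds for a pool. Of the 50-base windows in the exons of each gene, 100% occurred once in the genome for Hspa5 and Pdia4 and 92.8% to 99.3% for Hsp90ab1, Dnajb1, Hsp90b1 and Calr. The share was 62.7% for Hspa8, 43.8% for Hsp90aa1, 39.0% for Hspa1a and 37.7% for Hspa1b. Hspa1a and Hspa1b lie near each other on chromosome 17 (NCBIM37 35106144 to 35109069 and 35093381 to 35096183, minus strand, 1 exon each), and 59.4% of Hspa1a windows and 62.1% of Hspa1b windows were found in the other gene. How much of the level of either gene was lost in this way is uncertain. Per kilobase of windows found once, an alternative added after the data were seen, Hsp90aa1 had a level of 734 ± 200 (SD) beside 752 ± 19.3 for Hsp90ab1, and Hspa1a rose in the order from the seventh to the fourth place, at 426 ± 280. Hspa8 stayed first at 1532 and Pdia4 last at 73.7.

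**Figure D1:**
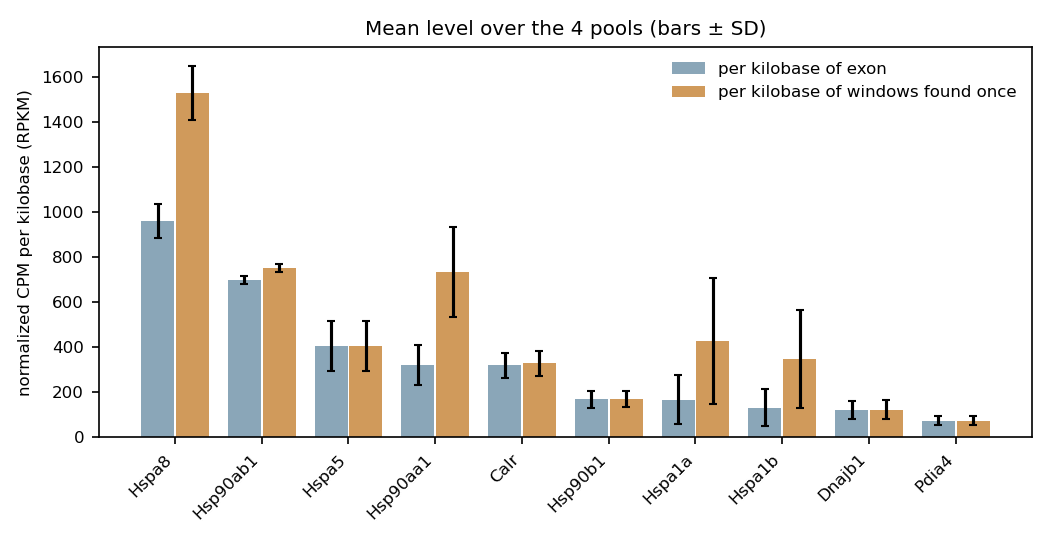
Mean level of each chaperone over the 4 pools in RPKM, per kilobase of exon (blue) and per kilobase of 50-base windows that occur once in the genome (orange). Bars start at 0 and error bars are the SD over 4 pools. Hspa8 was highest on both scales, and Hsp90aa1 went from 322 to 734.

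The inducible Hsp70 genes varied most among the 10. Gene positions given from here on are those of NCBIM37, unlike the promoter positions above. Hspa1a stood at 214 (pool 1) and 783 (pool 2) normalized CPM in the females and at 205 (pool 1) and 742 (pool 2) in the males. Hspa1b had 166, 616, 176 and 514 normalized CPM in the same order. For both genes, the 2 pools numbered 2 were far above the 2 pools numbered 1, and male and female pools of the same number lay within 0.835 to 1.06 times of each other. Dnajb1 (chr8:86132074-86135801, plus strand), which hands clients to Hsp70 and starts its ATP cycle, had 202, 388.5, 223 and 386 normalized CPM. It showed the same alternation at a smaller scale.

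The other cytosolic chaperones did not alternate in this way. Hspa8 (chr9:40609067-40613283, plus strand) had 4049, 3654, 4396 and 3868 normalized CPM, the highest value being only 1.20 times the lowest. Hsp90ab1 (chr17:45704724-45710220, minus strand) was the steadiest of the set at 2045, 2062, 2166 and 2097 normalized CPM, a span of 1.06 times. Hsp90aa1 (chr12:111928815-111940938, minus strand) had 1106, 1101, 1070 and 1782 normalized CPM. Male pool 2 alone was high for Hsp90aa1, while the remaining 3 pools differed little.

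The ER chaperones ran the other way. Hspa5 (chr2:34627490-34632051, plus strand) had 1938, 1297, 1445 and 1003 normalized CPM in female pools 1 and 2 and male pools 1 and 2. Hsp90b1 (chr10:86152954-86168254, minus strand) had 833, 596, 757 and 516 normalized CPM. Both were lower in pool 2 than in pool 1 of either sex, and their pool numbers did not overlap, as for 29.0% of all genes. Pdia4 (chr6:47746141-47763511, minus strand) had 229, 193, 189.9 and 119.7 normalized CPM. Calr (chr8:87365749-87370833, minus strand), which also holds MHC class I molecules in the peptide loading complex, had 1073, 970.4, 929 and 700 normalized CPM. Female pool 1 was highest and male pool 2 lowest for each of the 4 ER chaperones.

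**Figure D2:**
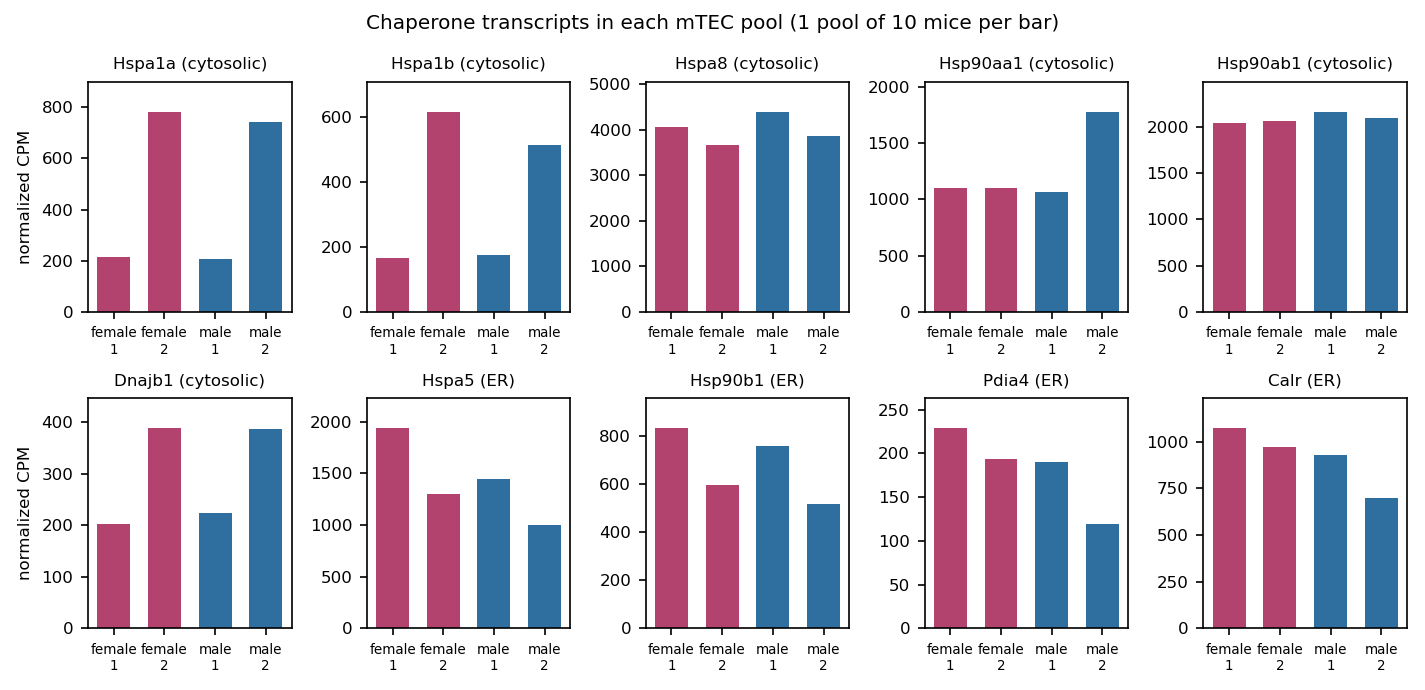
Normalized CPM of each chaperone in female pools 1 and 2 (red) and male pools 1 and 2 (blue), 1 bar per pool of 10 mice, each axis from 0. Hspa1a, Hspa1b and Dnajb1 were higher in the pools numbered 2, Hspa5 and Hsp90b1 lower, and Hsp90ab1 between 2045 and 2166 in every pool.

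Whether the sexes differ is the question the study was designed for. No chaperone of the set passed the test between males and females, and each had an adjusted p of 1 (edgeR's quasi-likelihood test, Benjamini-Hochberg over 10865 genes). None of the 10 reached an unadjusted p under 0.05 either. Over all genes, 0% passed the adjusted threshold (0 of 10865; DESeq2 called 3) and 0.442% had an unadjusted p under 0.05. Log2 fold changes of male over female ranged from -0.44 (standard error, SE, 0.39) for Pdia4 to 0.37 (SE 0.48) for Hsp90aa1. The standard errors, 0.39 to 0.80, were as large as most of these differences, so a sex difference of about that size was not detectable with 2 pools per sex. Larger differences are not excluded either, since no gene at all was called, the lowest adjusted p being 0.186 (edgeR). With sex alone in the model, the difference between pool numbers counted as spread within each sex. The p-values rest on the spread between pools of separate mice.

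Of the 6 cytosolic chaperones 4 had log2 fold changes above 0 in this comparison, and of the 4 ER chaperones 0, none called. The median log2 fold change of male over female was 0.049 for the 6 cytosolic genes and -0.36 for the 4 ER genes, beside 0.027 for all genes tested. The cytosolic median was -0.068 with library size only and between -0.21 and 0.50 with each pool left out, its lowest value being without male pool 2 and its highest without female pool 2. The ER median was then between -0.63 and -0.14, lowest without male pool 1 and highest without male pool 2. With library size only (ER median -0.40), and without female pool 1 or male pool 2, the 2 medians no longer lay on different sides of 0. The mean level of Hspa5 was 1618 ± 454 normalized CPM for the 2 female pools and 1224 ± 312 for the 2 male pools (SD, n = 2 each), and its pools overlapped. Calr averaged 1022 ± 72.5 normalized CPM over the female and 814 ± 162 over the male pools, and Pdia4 had 211 ± 25.4 and 155 ± 49.6. The 2 male pools lay below the 2 female pools for Calr and Pdia4, as for 11.7% of all genes. Hsp90ab1 was the only one of the 10 with both male pools above both female pools, a pattern that 9.47% of all genes showed, and its log2 fold change was 0.05 (SE 0.45). For Hspa1a, the female mean of 499 ± 403 normalized CPM and the male mean of 473 ± 379 carried SDs nearly as large as themselves, since each sex held 1 low and 1 high pool.

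**Figure D3:**
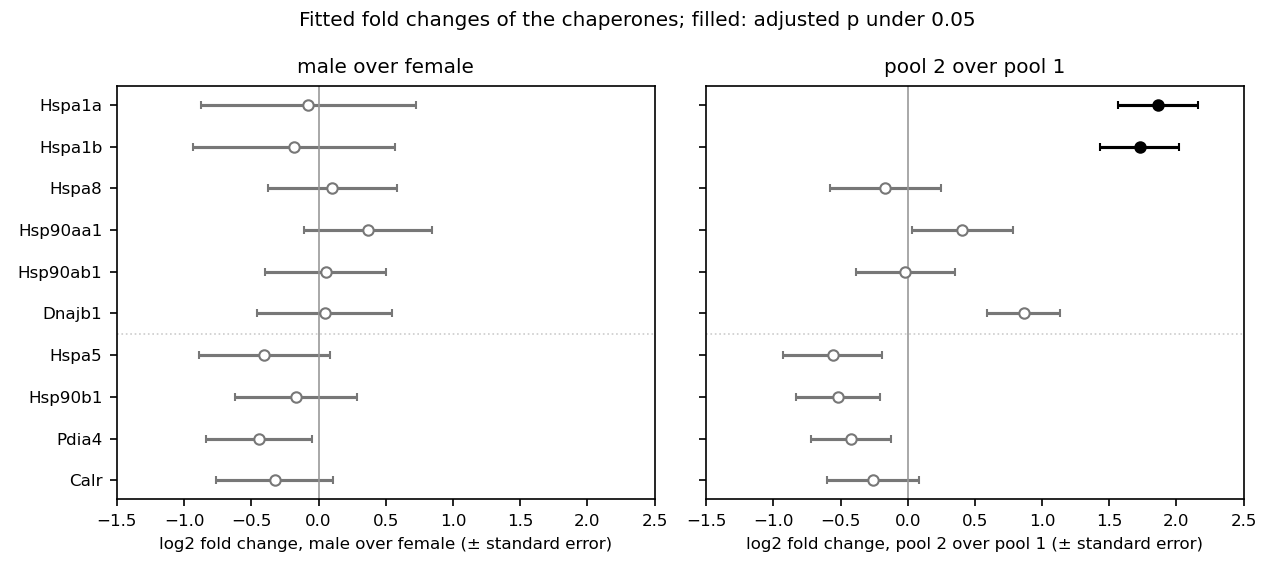
Fitted log2 fold changes with standard errors for male over female (left) and pool 2 over pool 1 (right), cytosolic chaperones above the dotted line and ER chaperones below it. Filled points passed an adjusted p of 0.05, which were Hspa1a and Hspa1b between pool numbers and none between sexes.

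Between the pool numbers, the inducible Hsp70 genes rose in pool 2. This comparison was made because earlier results of these data had shown that pool number separates the pools. The chaperones were chosen with those results known as well, so the p-values and counts called here are a description. The log2 fold change of pool 2 over pool 1 was 1.86 (SE 0.30) for Hspa1a and 1.73 (SE 0.29) for Hspa1b, each with an adjusted p of 0.0391 (edgeR's quasi-likelihood test). They were 2 of 10 chaperones called higher, where 1.86% of all genes tested were, and 0 of 10 were called lower, where 0.175% of all genes were. Dnajb1 had a log2 fold change of 0.86 (SE 0.27) and missed the threshold at an adjusted p of 0.111. Without female pool 1 or without male pool 1, neither Hsp70 gene passed, with adjusted p of 0.146 and 0.248 for Hspa1a and 0.180 and 0.237 for Hspa1b, the lowest log2 fold change of either with any pool left out being 1.62. Without female pool 2, log2 fold changes were 1.85 for Hspa1a, 1.62 for Hspa1b, 0.74 for Hsp90aa1, 0.88 for Dnajb1 and -0.78 for Pdia4. Without male pool 2, the same genes had values of 1.90, 1.84, 0.011, 0.86 and -0.12. The number of all genes called moved widely between such fits, so which chaperones pass in them is not a result about the set. In each of these fits 1 side held a single pool, which is assumed to vary like the pair on the other side.

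The size of the Hsp70 difference could be read in each sex separately, as a ratio of single pools with a 95% Clopper-Pearson interval for counting error only. Hspa1a was 3.66 times as high in female pool 2 as in female pool 1 (3.36 to 3.99) and 3.62 times as high in male pool 2 as in male pool 1 (3.39 to 3.87). Hspa1b was 3.71 times as high in females (3.37 to 4.10) and 2.93 times in males (2.72 to 3.15). Their summed level was 379.7 and 1399 normalized CPM in female pools 1 and 2, and 381 and 1256 in male pools 1 and 2. Per kilobase of exon, their summed level was 13.6% and 12.5% of the Hspa8 level in the pools numbered 1 and 55.4% and 46.9% in the pools numbered 2. Per kilobase of windows found once, the shares were 22.2% and 20.5% in the pools numbered 1 and 90.5% and 76.6% in the pools numbered 2. Dnajb1 was 1.92 times as high in females (1.74 to 2.13) and 1.73 times in males (1.60 to 1.87). Hsp90aa1 was 0.996 times as high in females (0.945 to 1.05) and 1.66 times in males (1.61 to 1.73). Whether that ratio differs between the sexes was not tested, because each rests on 1 pool per side.

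ER chaperones had log2 fold changes of pool 2 over pool 1 below 0 in 4 of 4, none called. The values were -0.56 (SE 0.37) for Hspa5, -0.52 (SE 0.31) for Hsp90b1, -0.42 (SE 0.30) for Pdia4 and -0.26 (SE 0.34) for Calr, with adjusted p between 0.345 and 0.684 (edgeR). Their median of -0.47 stood beside -0.03 for all genes tested and 0.63 for the 6 cytosolic genes. With library size only, which lowered the median of all genes to -0.35, they were -0.74 and 0.30, and without male pool 2 they were -0.25 and 0.44. The ER median was also -0.31 without female pool 1. Single-pool ratios for Hspa5 were 0.669 in females (0.640 to 0.700) and 0.694 in males (0.665 to 0.724). Hsp90b1 had ratios of 0.715 and 0.681, Pdia4 of 0.843 and 0.631 and Calr of 0.905 and 0.754, in females and males. All 8 of these intervals lay below 1, but a counting interval holds none of the spread between pools. With 3 chaperones (Hspa1a, Hspa1b and Dnajb1) the pools numbered 2 lay above both pools numbered 1, and with 3 (Hspa8, Hspa5 and Hsp90b1) they lay below, patterns shown by 26.5% and 29.0% of all genes.

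**Figure D4:**
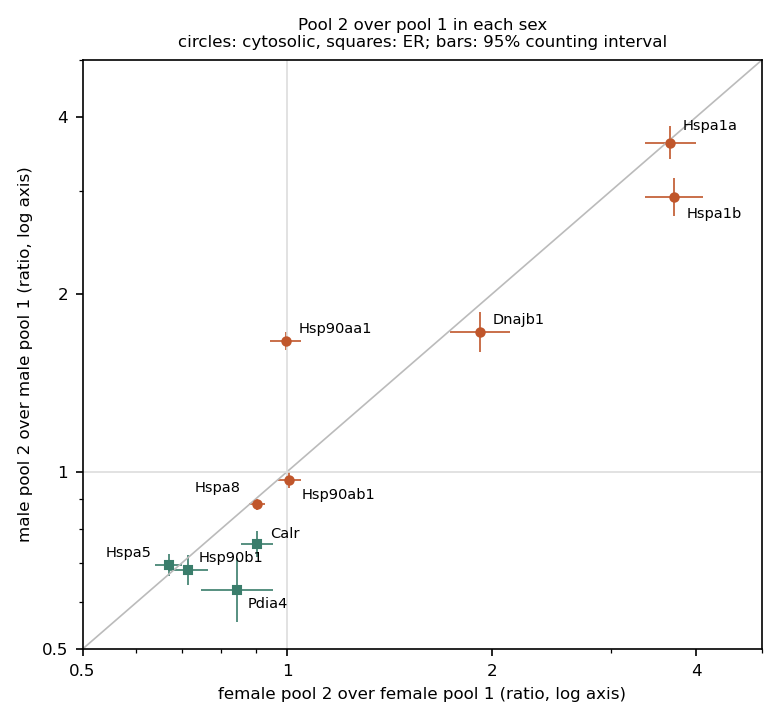
Ratio of normalized CPM in pool 2 over pool 1 for females (x axis) and males (y axis), both axes logarithmic, with 95% counting intervals. Circles are cytosolic and squares ER chaperones, and the grey diagonal marks equal ratios. Hspa1a, Hspa1b and Dnajb1 lay above 1 in both sexes, the ER chaperones below 1 in both, and Hsp90aa1 at 0.996 in females and 1.66 in males.

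The sums over each compartment followed from these values. The 6 cytosolic genes summed to 7781 and 8603 normalized CPM in female pools 1 and 2 and to 8237 and 9388 in male pools 1 and 2. The 4 ER genes summed to 4074, 3056, 3321 and 2338. The ER sum was thus 52.4% and 35.5% of the cytosolic sum in females and 40.3% and 24.9% in males. These sums are not per kilobase. Windows found once made up 37.7% to 62.7% for Hspa8, Hsp90aa1, Hspa1a and Hspa1b, and 97.3% to 100% for the ER genes. The percentages therefore compare the pools and do not measure the balance of the compartments. Hsp90ab1 per kilobase was 2.43, 2.45, 2.65 and 1.54 times Hsp90aa1, male pool 2 being apart. Per kilobase of windows found once, the ratios were 1.14, 1.16, 1.25 and 0.728, so which of the pair was higher in male pool 2 depends on that choice. The ratio of Hspa5 to Hsp90b1 held between 2.19 and 2.67 in the 4 pools.

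Other genes of the same networks were described from lists that were chosen with earlier results of these data known. Counts called in these lists, beside the share of all genes, are therefore a description and no independent support. Of 31 further cytosolic chaperones, cochaperones and regulators tested, 4 rose in pool 2, where 1.86% of all genes did, and none fell, where 0.175% did. Bag3, a cochaperone that links Hsp70 to autophagy, had 17.1, 98.0, 14.6 and 97.0 normalized CPM and a log2 fold change of 2.63 (SE 0.24, adjusted p = 0.0202, edgeR). Hspb1, the small heat shock protein Hsp27, had 15.2, 76.7, 21.8 and 154 normalized CPM and a log2 fold change of 2.63 (SE 0.36, adjusted p = 0.0391, edgeR). These genes showed the low and high alternation of Hspa1a, and both passed under every alternative and without any single pool.
Hsph1, the nucleotide exchange factor Hsp110, had 68.2, 286, 129 and 326.5 normalized CPM and a log2 fold change of 1.63 (SE 0.34, adjusted p = 0.0490, edgeR), which was lost without female pool 1 (adjusted p = 0.313). Hspa1l, an Hsp70 gene beside Hspa1a on the opposite strand, had a log2 fold change of 2.87 (SE 0.55, adjusted p = 0.0451, edgeR) at only 0.717 to 7.92 normalized CPM. With pools left out it passed only without female pool 1, the adjusted p being 0.0593, 0.170 and 0.0750 without female pool 2, male pool 1 and male pool 2.
The 27 genes of the list that were not called had a median log2 fold change of -0.16. One of them, Cryab, a small heat shock protein named after its values were seen, had a log2 fold change of 1.67 (SE 0.58, adjusted p = 0.133, edgeR) at 1.63 to 9.63 normalized CPM. The 3 most abundant genes of the list, Dnaja1, Cdc37 and Stip1, had values of 0.06, 0.03 and 0.04. Without female pool 2, more of the list passed, in both directions. Far more of all genes passed in that fit too, and it left a single pool numbered 2. Hsf1, the factor itself, had 44.6, 43.1, 44.2 and 25.4 normalized CPM, a log2 fold change of -0.39 (SE 0.29), and is named after its values were seen.

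The chaperonin TRiC, the cytosolic folding chamber for actin and tubulin, had none of 8 subunits called by edgeR or DESeq2 and none at an unadjusted p under 0.05, and their median log2 fold change of pool 2 over pool 1 was -0.28. Its 3 most abundant subunits, Cct5, Cct3 and Cct7, had values of -0.28, -0.28 and -0.10. None of 6 mitochondrial chaperones was called by edgeR. Of these 6, 2 had an unadjusted p under 0.05, beside 23.7% of all genes, and DESeq2 called 1, beside 651 of all 10865 genes. Hspe1, which caps the Hsp60 chamber, had 201, 377, 207 and 1488 normalized CPM. Its log2 fold change was 2.20 (SE 0.56, adjusted p = 0.0675, edgeR). Male pool 2 was far above the others for Hspe1, while Hspd1, the Hsp60 subunit it caps, had 200.3, 209.8, 248 and 232 normalized CPM. Hspa9, the mitochondrial Hsp70, had a log2 fold change of -0.78 (SE 0.25, adjusted p = 0.111).

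Of 30 further ER chaperones, folding enzymes and quality control genes, none was called between pool numbers by edgeR or DESeq2, 21 had log2 fold changes below 0, and 8 reached an unadjusted p under 0.05, as did 23.7% of all genes tested between pool numbers. Their median was -0.23. The most abundant were Pdia3, the disulfide isomerase that works with calreticulin, at -0.23 (SE 0.31), Herpud1, a part of ER-associated degradation, at 0.13 (SE 0.29) and Serp1, which guards membrane proteins in the making, at -0.44 (SE 0.29). The genes did not all lie on the side of Hspa5. Sdf2l1 and Manf, both induced by ER stress and named here after their values were seen, had log2 fold changes of 0.86 (SE 0.28) and 0.64 (SE 0.30). Sdf2l1 stood at 219.9 and 348 normalized CPM in female pools 1 and 2 and at 176 and 371 in male pools 1 and 2.

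Of 15 regulators of the unfolded protein response, 1 fell in pool 2, beside 0.175% of all genes. It was Eif2ak3, which encodes the ER stress sensor PERK, with 56.8, 23.8, 53.5 and 18.1 normalized CPM and a log2 fold change of -1.40 (SE 0.26, adjusted p = 0.0443, edgeR), and it passed under each alternative and without each pool. Atf4, the factor translated when PERK is active, had a log2 fold change of -0.42 (SE 0.27), Xbp1, which is spliced by the sensor IRE1, of -0.40 (SE 0.26) and Ppp1r15a, which ends the PERK response, of -0.47 (SE 0.43). These 3, the most abundant of the list, were not called. Counts per gene cannot show the splicing of Xbp1. None of 7 peptide loading partners of Calr was called by edgeR or DESeq2. Of these 7, 1 had an unadjusted p under 0.05, beside 23.7% of all genes. B2m, the light chain of MHC class I, had 8440, 6882, 5910 and 14150 normalized CPM. Pdia3 belongs to this list as well, and Tapbp, the bridge between peptide transporter and MHC class I, had a log2 fold change of 0.14 (SE 0.33). Between the sexes, no gene of these 6 lists was called by edgeR or DESeq2 or had an unadjusted p under 0.05.

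**Figure D5:**
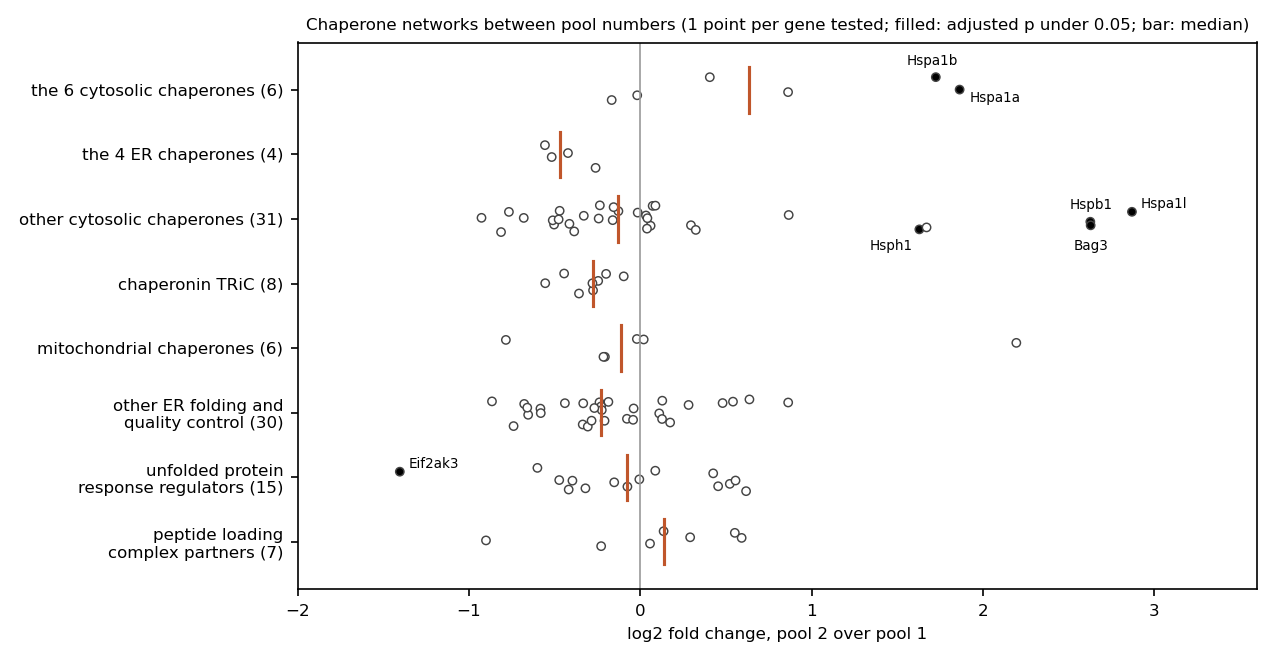
Log2 fold change of pool 2 over pool 1 for each tested gene of the chaperone set and of 6 related lists, 1 point per gene with the number tested in brackets. Orange bars are medians and filled points passed an adjusted p of 0.05. The cytosolic genes that passed lie between 1.63 and 2.87, and Eif2ak3 at -1.40 was the only one on the other side.

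Marker sums of several cell types differed between the pool numbers as well. Summed over 9 epithelial markers, normalized CPM were 376 and 650.2 in female pools 1 and 2 and 418 and 618 in male pools 1 and 2. Markers of conventional dendritic cells and macrophages (10 of 11 in the table) summed to 2099 and 3463 in females and 1555 and 4505 in males. B cell markers (8) summed to 4619 and 3028 in females and 3812 and 2539 in males, and plasma cell markers (8), from cells rich in ER, to 1461 and 947 in females and 1749 and 1300 in males. Without Igj, left out after its values were seen, the remaining 7 plasma cell markers summed to 845 and 708 in females and 674.5 and 804 in males. No gene of these 4 lists was called by edgeR, although 3 epithelial, 6 dendritic cell and macrophage, 3 B cell and 1 plasma cell marker had an unadjusted p under 0.05 and DESeq2 called 2, 2, 1 and 0. Over all genes, 23.7% had such an unadjusted p and DESeq2 called 651 of 10865. None of the genes of these 4 lists that the table holds was at 0 in every pool. The mTEC markers (7, of which 5 were tested) summed to 446 and 489 in females and 374 and 447 in males. Of these, 3 had an unadjusted p under 0.05 and none was called by edgeR or DESeq2. Cd40 held most of each sum, at 368 and 383 in females and 300 and 341 in males. The log2 fold changes of pool 2 over pool 1 were 1.12 for Fezf2, 0.76 for Tnfrsf11a and 0.63 for Aire. They were 0.12 for Cd40 and -0.015 for Cd80. Thymocyte markers (8, of which 7 were tested) summed to 238 and 244 in females and 634 and 355 in males, with 2 at an unadjusted p under 0.05, none called by edgeR and 2 called lower by DESeq2. Plasmacytoid dendritic cell markers (7) summed to 2904 and 2432 in females and 2351 and 3305 in males. Of these markers, 4 had an unadjusted p under 0.05 and none was called by edgeR or DESeq2. The part of these cell type lists in the chaperone differences was not tested. The 9 immediate early genes summed to 9828 and 7587 in females and 5459 and 5181 in males. Both male pools lay below both female pools for 8 of these 9 genes, as for 11.7% of all genes. Fosb, named after its values were seen, was the exception, with 98.7 and 106 normalized CPM in females and 48.0 and 105 in males. In both comparisons edgeR and DESeq2 called none of the 9 genes, with 0 at an unadjusted p under 0.05, and their part was not tested either.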

How the data were processed

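RNA was measured in 4 pools of cells sorted as mTECs. Per the labels and methods, the authors removed low-quality reads with Trimmomatic, aligned to mm9 with TopHat2 and deposited raw HTSeq counts per gene, 1 library per pool. Versions, gene annotation and strand setting are not given in the sources used here. The 5 summary rows, for reads not assigned to a gene, held 66.9% to 70.2% of all counts of a pool. They stayed out of library sizes and tests. No pair of pools agreed within sampling noise (lowest chi-square per degree of freedom 10.1), so each was kept as 1 sample. A deposited count of 3 was used as the limit of a count of 0, for counting error only.

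Counts were tested with edgeR 4.0.16 (R 4.3.3), two-sided quasi-likelihood test, after TMM scaling and filterByExpr (minimum count 10). The model held either sex or pool number, the prior count was 0.125, and p-values were adjusted by Benjamini-Hochberg with a threshold of 0.05. Each standard error was obtained by dividing the log2 fold change by the square root of F. The fit was tested on simulated data. Exon lengths came from GENCODE annotation of NCBIM37 (mm9), to which 90.9% of symbols matched, and windows of 50 bases were sought in that genome. Motifs were sought in RefSeq promoters of GRCm38.p6, whose coordinates differ from NCBIM37. Protein sequences were not used here.

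The chaperones, the lists and the comparison of pool numbers were chosen with earlier results of these data known. Named are the 10 chaperones and, from each list, the 3 most abundant genes and up to 6 past the adjusted threshold. Alternatives were upper-quartile scaling, library size only, no filter, over 1 CPM in at least 2 pools, DESeq2 1.42.0, the other factor as a term and each pool left out. For the cytosolic list these alternatives, and for levels the windows found once, were added after the data were seen. Python 3.11.15, pandas 2.3.3, scipy 1.17.1 and matplotlib 3.10.9 made the summaries.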

Additional observations from a re-analysis of the deposited data

How the results depend on the processing

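No chaperone was called between the sexes under any alternative or without any single pool. Over all genes, the number called between the sexes was 0, and 5 with library size only, 26 without a filter, 3 with DESeq2 and 0 to 646 with each pool left out (646 without male pool 1 and 70 without male pool 2). The median of the 10 log2 fold changes of male over female was -0.26 with library size only and -0.17 to 0.063 with each pool left out. Between pool numbers, 221 genes were called, 764 with library size only (376 higher and 388 lower, beside 202 and 19), 1504 without a filter, 651 with DESeq2, 807 with sex as a term and 174 to 2620 with each pool left out (2620 without female pool 2 and 411 without female pool 1). Chaperones called numbered 2 under each alternative and 0 to 5 with each pool left out. Library size only moved the median of all genes between pool numbers to -0.35, and that of the 10 chaperones to -0.41. Without a filter the latter was -0.16.

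The pool numbers were fitted as a replicate block in the sex comparison, which called 17 genes and none of the 10 chaperones. The difference of pool 2 from pool 1 correlated between the sexes at 0.519 over genes. With 2 pairs and no label that ties same-numbered pools together, this does not establish pairing.

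Several small sex differences changed sign. Hspa1a ranged from -1.27 to 1.17 and Hspa1b from -1.14 to 1.08 with each pool left out, Hspa8 from -0.0057 to 0.20, Hsp90aa1 from -0.036 to 0.68, Dnajb1 from -0.39 to 0.61 and Hsp90b1 from -0.48 to 0.097. With library size only, Hsp90ab1 was -0.023 and Dnajb1 -0.11. Between pool numbers, Hsp90ab1 was 0.016 with DESeq2 and -0.067 to 0.022 with each pool left out. The cause was not tested. Reads with several alignments limit the levels of Hspa1a, Hspa1b, Hsp90aa1 and Hspa8.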
